A study of Mus musculus with 4 samples.

Results

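The 9 genes described here encode the hemidesmosome of epidermal keratinocytes and its anchors in the basement membrane. They were chosen by gene name from the expression tables of newborn mouse epidermis, and all 9 were found, each with 1 row per table, among 54752 genes. They are the integrin subunits Itga6, Itgb4, Itga3 and Itgb1, the laminin chains Lama3 and Lamb3, the transmembrane collagen Col17a1 and the plakins Dst and Plec. Total RNA came from the epidermis of C57BL/6 pups at postnatal day 0 (P0), from 2 Skiv2l fl/fl K14-Cre pups and 2 Skiv2l ctl pups. In the Skiv2l fl/fl K14-Cre pups both Skiv2l alleles are floxed and Cre is driven by the keratin 14 promoter, which is active in keratinocytes, so that Skiv2l, the helicase subunit that feeds RNA to the cytoplasmic exosome, is deleted there. The study's Skiv2l ctl group pools littermates that are Skiv2l fl/fl or Skiv2l fl/+ without Cre, or Skiv2l fl/+ with K14-Cre, and which of these each control pup carried is not given, so a control pup may itself have lost 1 allele. The question was which of the anchoring genes differed between the 2 genotypes, and whether genes whose products are built into the same complex moved together. The groups are called knockout and control from here on.

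Hemidesmosomes rivet the basal layer of the epidermis to the underlying matrix. Integrin α6β4 in the basal membrane of the cell binds laminin-332, a trimer that holds the laminin α3 and β3 chains, while inside the cell the plakins plectin and BPAG1 tie the integrin and collagen XVII to keratin filaments. Integrin α3β1 binds the same laminin but connects to actin at focal adhesions, and loss of several of these proteins gives blistering skin in the epidermolysis bullosa group of diseases.

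The expression unit was FPKM, the number of sequenced fragments scaled by the authors for transcript length and for library size. The 4 libraries held 5.84 to 6.27 aligned gigabases, read from the ratio of the deposited coverage to FPKM. Fold changes are differences of log2(FPKM + 1) from a limma fit over the 13609 protein-coding genes that passed 0.5 FPKM in at least 1 library, and a gene was called when its p, adjusted by the Benjamini-Hochberg method over all of these genes, was under 0.05. With 2 against 2 libraries the smallest two-sided p of an exact permutation test is 0.333, and no such p is printed for single genes. Skiv2l (ENSMUSG00000040356.16) had 19.3 and 19.1 FPKM in the controls against 10.8 and 8.55 FPKM in the knockouts (log2 fold change -0.92, standard error 0.12, adjusted p = 0.00368, limma). Without control replicate 1 or 2 the adjusted p of Skiv2l was 0.0562 or 0.0547. The log2 fold change of all tested genes had a median of -0.20, which moved to -0.03 when the libraries were set to 1 median and to -0.05 after quantile normalization, so changes of the 9 genes are also given on those scales where their direction or call depends on it.

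Of the 9 anchor genes, 4 were called higher in knockout epidermis, namely Itga3, Itgb4, Itgb1 and Lama3, against 8.99% of all tested genes called in that direction. None of the 9 was called lower, at the adjusted threshold or at an unadjusted p under 0.05, and limma made 0 such calls among them under any alternative. Among all tested genes 25.4% were called lower, and the split of 1223 higher against 3455 lower became 1894 against 1623 with the libraries at 1 median and 1683 against 1917 after quantile normalization. Both knockout libraries lay above both controls for 5 of the 9 genes, against 18.2% of all tested genes, and below both controls for 1 gene, Itga6, against 55.3%. The median log2 fold change of the 9 genes was 0.14. In these bulk samples a change in the share of basal cells and a change in RNA per cell cannot be told apart.

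**Figure D1:**
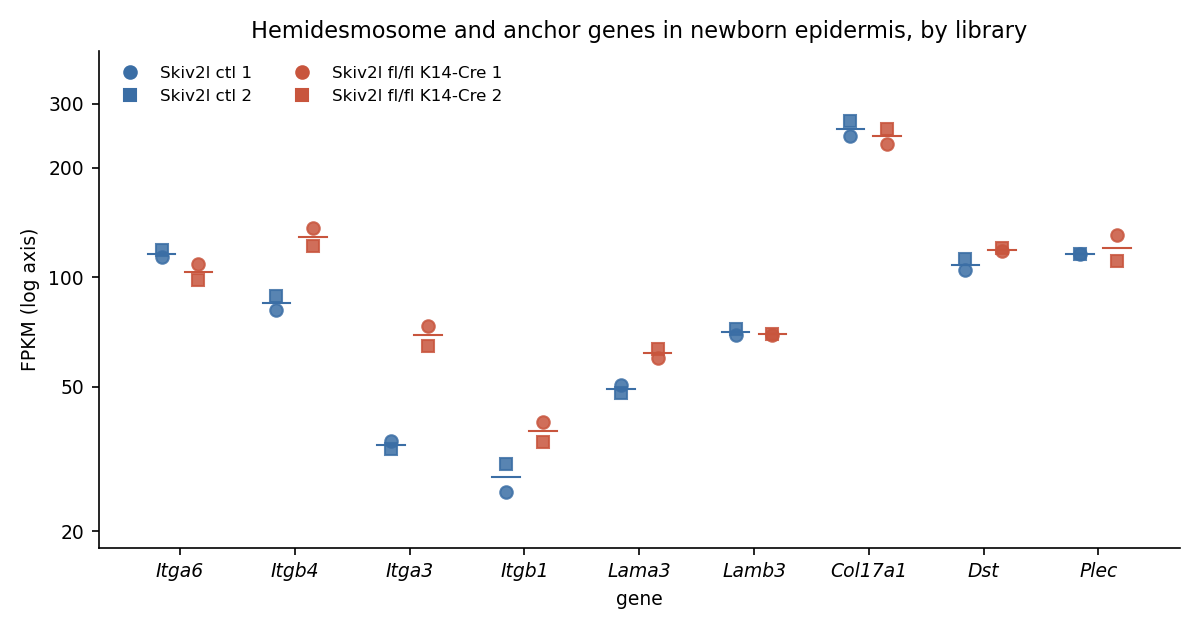
FPKM of the 9 genes (log axis) in each of the 4 libraries, with controls (Skiv2l ctl) in blue, knockouts (Skiv2l fl/fl K14-Cre) in red, circles for replicate 1, squares for replicate 2 and a short line at the group mean (n = 2). The red points lie above the blue ones for Itgb4, Itga3, Itgb1, Lama3 and Dst and below them for Itga6, and the groups overlap for Lamb3, Col17a1 and Plec.

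Promoter sequences are shown for 2 genes that were called higher, Itga3 and Itgb1, beside 2 that were not called, Lamb3 and Col17a1. Each window runs from 250 bases before to 50 bases after a RefSeq transcription start, on build GRCm38.p6. Windows of 5 of the 9 genes were examined, and none was examined on the chromosome of Lama3, another gene called higher. For Itga3 and Lamb3, which have 2 windows each, the upstream one is shown. Capitals mark matches, on either strand, to 3 motifs whose matches do not overlap each other in these windows, the AP-1 motif TGANTCA, the GC box GGGCGG and the TATA motif TATAAA. The windows are chr11:95076665-95076964 (minus strand) for Itga3, chr8:128685404-128685703 (plus strand) for Itgb1, chr1:193301744-193302043 (plus strand) for Lamb3 and chr19:47691993-47692292 (minus strand) for Col17a1.
Itga3: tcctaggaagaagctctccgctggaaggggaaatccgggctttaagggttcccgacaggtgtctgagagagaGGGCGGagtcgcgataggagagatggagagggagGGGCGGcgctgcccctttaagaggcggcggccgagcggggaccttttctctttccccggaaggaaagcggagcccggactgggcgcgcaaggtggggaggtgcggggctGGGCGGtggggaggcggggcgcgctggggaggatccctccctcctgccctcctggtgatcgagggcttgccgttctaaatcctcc
Itgb1: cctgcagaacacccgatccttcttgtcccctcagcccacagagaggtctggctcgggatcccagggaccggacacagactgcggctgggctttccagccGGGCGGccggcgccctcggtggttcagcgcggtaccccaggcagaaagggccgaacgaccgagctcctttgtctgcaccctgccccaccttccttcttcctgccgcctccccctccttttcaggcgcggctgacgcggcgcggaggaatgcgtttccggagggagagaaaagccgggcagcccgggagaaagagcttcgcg
Lamb3: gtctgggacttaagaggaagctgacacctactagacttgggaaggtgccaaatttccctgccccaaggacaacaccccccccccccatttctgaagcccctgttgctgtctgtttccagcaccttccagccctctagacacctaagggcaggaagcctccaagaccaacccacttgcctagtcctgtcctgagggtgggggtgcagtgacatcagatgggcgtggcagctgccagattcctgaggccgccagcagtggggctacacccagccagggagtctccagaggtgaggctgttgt
Col17a1: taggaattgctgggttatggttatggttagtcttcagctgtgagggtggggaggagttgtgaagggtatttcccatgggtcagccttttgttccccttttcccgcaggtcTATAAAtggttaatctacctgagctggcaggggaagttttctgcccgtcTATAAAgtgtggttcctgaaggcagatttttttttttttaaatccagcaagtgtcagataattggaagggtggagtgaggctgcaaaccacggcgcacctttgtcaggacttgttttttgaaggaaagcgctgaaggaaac

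The GC box letters occurred 3 times in the Itga3 window and 1 time in the Itgb1 window, and in neither of the Lamb3 and Col17a1 windows shown. A GC box was present in 35.7% of all 32851 promoter windows. The Itga3 and Itgb1 windows had 66.7% and 67.3% G and C, and the Lamb3 and Col17a1 windows 59.3% and 46.3%, beside a median of 52.7% over all windows. The TATA letters occurred 2 times in the Col17a1 window and in none of the other 3, against 13.6% of all windows with at least 1 match. The AP-1 letters were in none of the 4, against 7.81% of all windows. The windows not shown break this contrast. Dst, which was not called, has 2 windows, and the upstream one held 4 GC boxes and 70.3% G and C, more than either called gene shown. The downstream Itga3 window held 1 AP-1 match and 1 GC box. A match is a match of letters only, and these few genes allow no comparison between called and uncalled ones.

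Itga3 and Itgb1 encode the α3 and β1 subunits of the laminin-binding integrin that sits beside the hemidesmosome. Itga3 (ENSMUSG00000001507.16, chromosome 11 from 95044474 to 95076801 of GRCm38, minus strand) had 35.4 and 33.7 FPKM in the controls against 73.6 and 64.8 FPKM in the knockouts. The lower of the 2 knockout values was well above both controls. Its group means of 34.5 ± 1.19 and 69.2 ± 6.27 FPKM (SD, n = 2) differed 2.003-fold, and the log2 fold change of 0.98, with a standard error of 0.095 and a limma adjusted p of 0.00123, was the largest of the 9 genes in size. Itga3 was called at an adjusted p under 0.05 in all 15 refits with other settings or a library left out, with log2 fold changes from 0.89 to 1.19 and adjusted p from 0.000287 to 0.0300. With a fold change of at least 2 on the log2(FPKM + 1) scale asked for as well, neither Itga3 nor any other of the 9 genes was called.

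Itgb1 (ENSMUSG00000025809.15, chromosome 8 from 128685654 to 128733200, plus strand), the β subunit that pairs with α3 and with many other α subunits, had 25.6 and 30.6 FPKM in the controls. The knockout libraries had 40.1 and 35.2 FPKM, above both controls, although the gap between the groups was smaller than the difference between the 2 controls. On the log2 scale Itgb1 changed by 0.41 (standard error 0.12) with a limma adjusted p of 0.0409. This call was close to the threshold and was made in 8 of the 15 refits. The adjusted p of Itgb1 was 0.215 without control replicate 1, 0.0810 without control replicate 2 and 0.122 without knockout replicate 1.

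Itgb4 and Itga6 encode the 2 subunits of α6β4, the integrin core of the hemidesmosome. Itgb4 (ENSMUSG00000020758.15, chromosome 11 from 115974709 to 116008412, plus strand) had 81.2 and 88.9 FPKM in the controls against 137 and 122 FPKM in the knockouts, with no overlap. The means of 85.1 ± 5.41 and 129 ± 10.7 FPKM (SD, n = 2) differed 1.52-fold, and on the log2 scale the change was 0.60 with a standard error of 0.097 (limma adjusted p = 0.00662). The adjusted p was under 0.05 in 14 of the 15 refits, and it was 0.0711 without control replicate 1.

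Its partner Itga6 (ENSMUSG00000027111.15, chromosome 2 from 71745616 to 71858416, plus strand) had 114 and 118 FPKM in the controls against 108 and 98.2 FPKM in the knockouts. Both knockout values were below both controls, the reverse of Itgb4, but the difference did not pass the test. For Itga6 the log2 fold change was -0.17 (95% confidence interval -0.38 to 0.04, limma adjusted p = 0.175), and it was 0.04 when the libraries were set to 1 median. Of the 75-base stretches of the Itga6 transcripts, 4.46% also occurred in transcripts of other genes, so a small part of its reads could have been split.

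The ratio of the subunits within a library does not depend on how libraries are scaled. The FPKM ratio of Itga6 to Itgb4 was 1.40 and 1.33 in the control libraries and 0.792 and 0.806 in the knockouts. The ratio was thus 0.585 times as high in knockout epidermis, a log2 difference of -0.77 against a spread between replicates of 0.038 (pooled SD). On the coverage measure the same log2 difference was -0.75. The FPKM ratio of Itga3 to Itgb1 was 1.38 and 1.10 in the controls against 1.84 in both knockout libraries, a log2 difference of 0.58 with a pooled SD of 0.16. Thus within each of the pairs 1 subunit gained on the other, the β subunit for α6β4 and the α subunit for α3β1. These ratios rest on 2 libraries a group and were not tested.

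**Figure D2:**
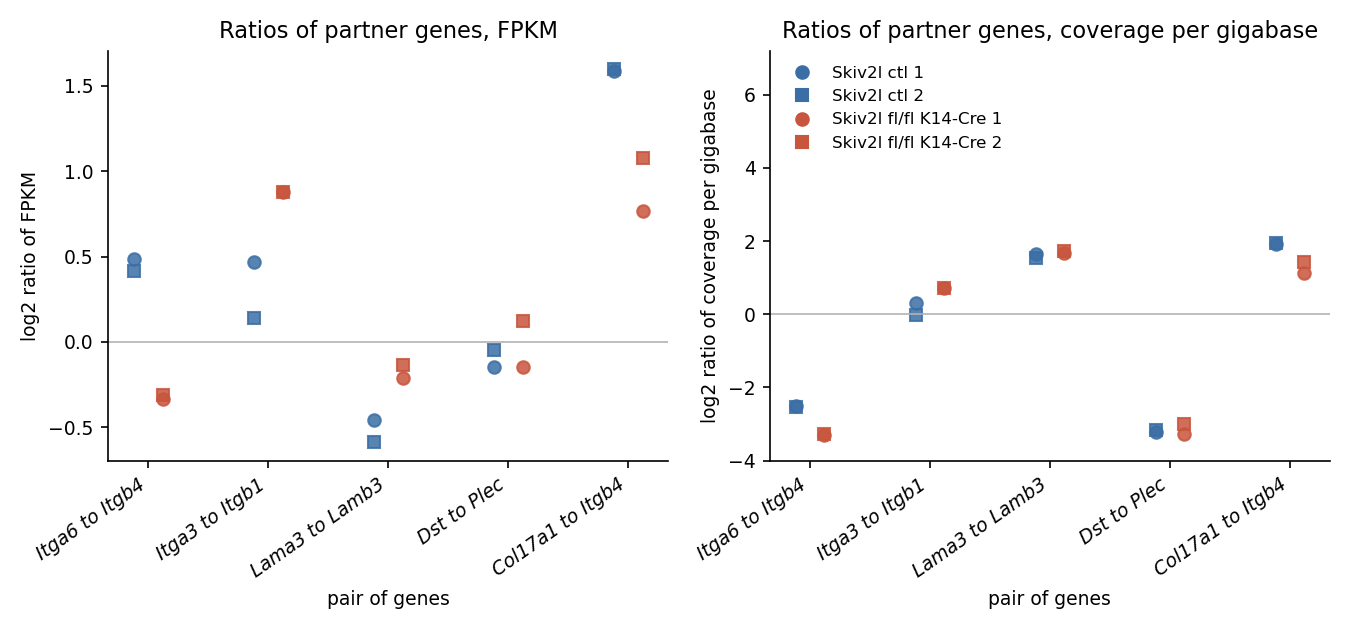
Log2 ratio of 2 partner genes within each library, from FPKM on the left and from coverage per aligned gigabase on the right, with controls in blue and knockout in red, for 5 pairs of genes. The red points lie below the blue ones for Itga6 to Itgb4 and Col17a1 to Itgb4 on both measures, and the Dst to Plec ratios overlap.

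Lama3 and Lamb3 encode the α3 and β3 chains of laminin-332, the ligand of both integrins. Lama3 (ENSMUSG00000024421.16), the α3 chain that carries the integrin-binding end, had 50.4 and 47.9 FPKM in the controls against 59.8 and 63.6 FPKM in the knockouts. The groups did not overlap, and the log2 fold change was 0.32 (standard error 0.083, limma adjusted p = 0.0299). The Lama3 call was made in 10 of the 15 refits. Its adjusted p was 0.116 without control replicate 1, 0.166 without control replicate 2 and 0.0749 without knockout replicate 2.

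The Lama3 rise also depended on the measure. The coverage that the authors deposited, divided by the aligned gigabases, was 27.5 and 26.9 in the controls against 28.5 and 29.8 in the knockouts, a log2 fold change of 0.10 (limma adjusted p = 0.269). How coverage was computed per gene is not given in the sources used here, and its values were taken as read depth averaged over all annotated exon bases. On that reading, coverage per gigabase divided by FPKM, times the merged exon length, gives the mean transcript length behind the FPKM value. Of the genes with 1 transcript and FPKM above 1, 100% had an implied length within 1% of that transcript in each library. For these genes the transcript length cancels, so that share shows only that their ratio of coverage to FPKM was the depth. The depth was itself read as the most frequent such ratio, so that share does not check the reading. Of the genes with several transcripts, 94.4% to 94.7% had such an implied length between their shortest and longest annotated transcript. That range can be wide, 254 to 15455 bases for Plec, so this share is a weak check. For Lama3 this implied length was 5860 and 6021 bases in the controls against 5129 and 5033 bases in the knockouts. GENCODE M21 lists 2 Lama3 transcripts, of 5551 and 10548 bases, and the knockout values fell below the shorter one. Between 5.34% and 5.56% of genes with several transcripts fell below their shortest transcript in a library. The implied length restates the gap between FPKM and coverage and is no separate measurement.

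**Figure D3:**
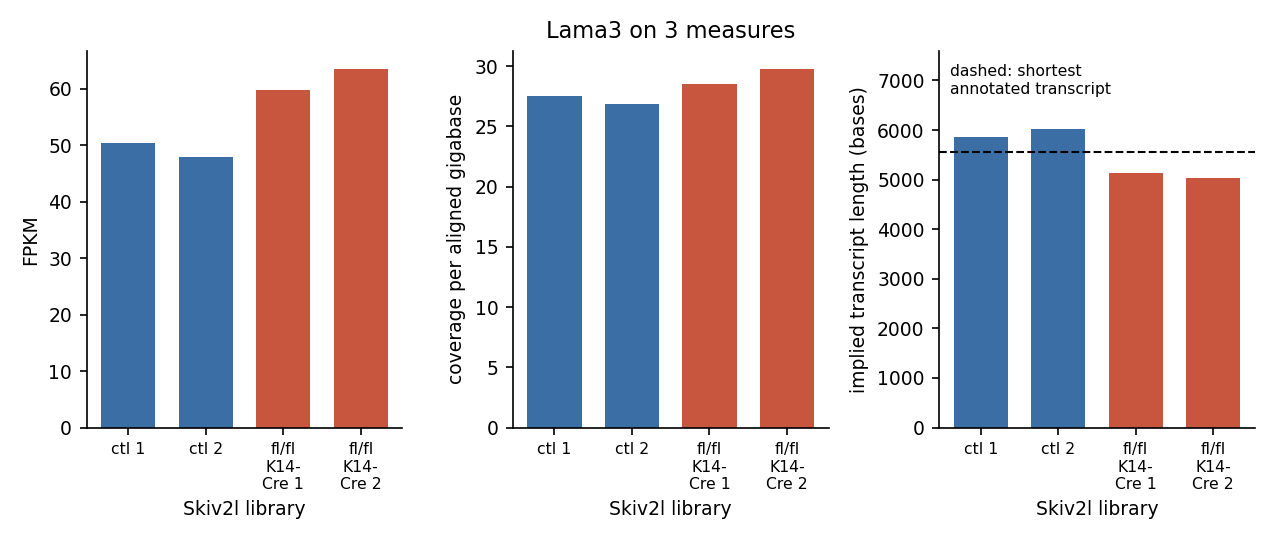
Lama3 in each library as FPKM, as coverage per aligned gigabase and as the implied transcript length, in bases, with controls in blue and knockout in red. FPKM rises from about 49.2 to 61.7 between the group means while coverage goes from 27.2 to 29.2, and the implied length is below the dashed line at 5551 bases, the shortest annotated transcript, only in the red libraries.

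Lamb3 (ENSMUSG00000026639.18, chromosome 1 from 193207699 to 193343878, plus strand), the β3 chain, had 69.2 and 72.0 FPKM in the controls against 69.2 and 69.9 FPKM in the knockouts. The knockout values lay within the range of the controls. Its log2 fold change was -0.02 (95% confidence interval -0.21 to 0.17, limma adjusted p = 0.852) and was 0.19 with the libraries at 1 median and 0.03 when they were scaled without genes above 1000 FPKM. The ratio of Lama3 to Lamb3 was 0.728 and 0.666 in the controls against 0.863 and 0.909 in the knockouts on FPKM, a log2 difference of 0.35 that was 0.11 on coverage. Of the 2 chains, the α3 chain thus had a called rise on FPKM and not on coverage, and the β3 chain had no call on either measure.

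Col17a1 (ENSMUSG00000025064.14, chromosome 19 from 47646344 to 47692094, minus strand) encodes collagen XVII, the transmembrane collagen that links the plakins to laminin. It had the highest level of the 9 genes, at 244 and 269 FPKM in the controls against 233 and 257 FPKM in the knockouts, and the groups overlapped. The log2 fold change was -0.07 (95% confidence interval -0.30 to 0.16, limma adjusted p = 0.5999), and with the libraries at 1 median it was 0.15. The FPKM ratio of Col17a1 to Itgb4, whose products bind each other, was 3.01 and 3.03 in the controls against 1.70 and 2.11 in the knockouts. The log2 difference of this ratio was -0.67 with a pooled SD of 0.15.

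Plec and Dst encode plectin and dystonin, whose epithelial form is BPAG1, the plakins of the inner hemidesmosomal plaque. Plec (ENSMUSG00000022565.15, chromosome 15 from 76170974 to 76232574, minus strand) had 116 FPKM in both control libraries. The knockout libraries had 130 and 111 FPKM, on either side of the controls. Plec had a log2 fold change of 0.05 (95% confidence interval -0.20 to 0.30, limma adjusted p = 0.716), and it was -0.07 without knockout replicate 1. Plec shares 205 exonic bases with Parp10 on the same strand, which had 11.6 and 12.1 FPKM in the controls against 6.09 and 4.43 FPKM in the knockouts, and the part of this overlap in the Plec values was not tested.

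Dst (ENSMUSG00000026131.18, chromosome 1 from 33908225 to 34308661, plus strand) had 105 and 112 FPKM in the controls against 118 and 120 FPKM in the knockouts. Both knockout values were above both controls by a small margin. The log2 fold change of 0.14 (95% confidence interval -0.06 to 0.33, limma adjusted p = 0.224) was not called, but with the libraries at 1 median it was 0.35 with an adjusted p of 0.0232. Dst shares 1037 exonic bases with Gm26788 on the opposite strand, at 9.29 to 12.1 FPKM, and whether the counting used strand is not given in the sources used here. The FPKM ratio of Dst to Plec was 0.903 and 0.966 in the controls against 0.904 and 1.09 in the knockouts, so the ratios of the groups overlapped.

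**Figure D4:**
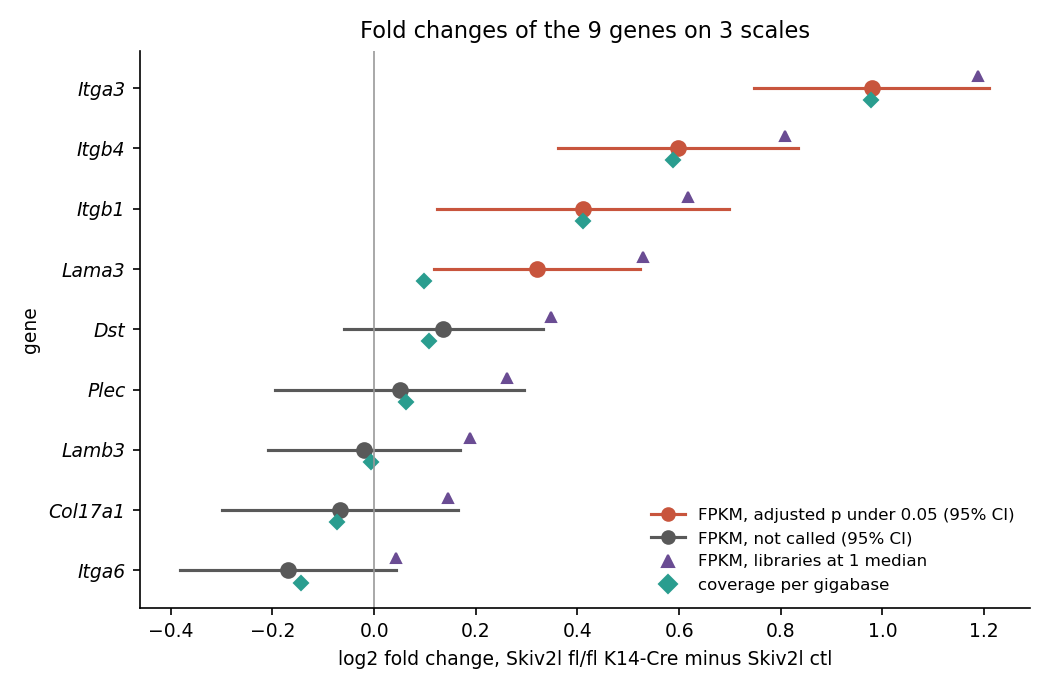
Log2 fold change of the 9 genes, knockout minus control, from FPKM with its 95% confidence interval (circles, red where called), from FPKM with the libraries at 1 median (triangles) and from coverage per gigabase (diamonds). Itga3, Itgb4 and Itgb1 stay above 0.4 on the 3 scales, Lama3 drops to 0.10 on coverage, and Itga6, Col17a1 and Lamb3 are below 0 from FPKM and above 0 with the libraries at 1 median.

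On the FPKM scale the order of the group means in control epidermis was Col17a1 with 257 ± 17.4, Itga6 with 116 ± 3.30, Plec with 116 ± 0.250, Dst with 108 ± 4.96, Itgb4 with 85.1 ± 5.41, Lamb3 with 70.6 ± 1.94, Lama3 with 49.2 ± 1.76, Itga3 with 34.5 ± 1.19 and Itgb1 with 28.1 ± 3.53 FPKM (SD, n = 2). Of these neighbours in the order, Itga6 and Plec did not differ beyond their spread. In knockout epidermis Itgb4 rose to the second place, at 129 FPKM, and its libraries overlapped those of Plec. Itga3 came level with Lamb3 on FPKM, at 69.2 beside 69.6 FPKM, where in the controls it had been at 34.5 beside 70.6 FPKM. On coverage per gigabase Itga3 was above Lamb3 in both groups, at 28.4 beside 8.97 in the controls and 57.0 beside 8.93 in the knockouts. On FPKM Col17a1 stayed first and Itgb1 last in both groups, while on coverage Col17a1 was first and Dst last in both groups.

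The order of levels between these genes was not the same on the coverage scale. In the controls, coverage per gigabase averaged 245 ± 17.1 for Col17a1, 64.3 ± 0.864 for Plec, 63.6 ± 3.56 for Itgb4, 28.4 ± 0.994 for Itga3, 27.2 ± 0.450 for Lama3, 25.8 ± 3.06 for Itgb1, 11.0 ± 0.507 for Itga6, 8.97 ± 0.296 for Lamb3 and 7.04 ± 0.292 for Dst (SD, n = 2). Itga6, Lamb3 and Dst, which were among the first 6 genes by FPKM, were the last 3 by coverage. The implied transcript length was 843 to 867 bases for Itga6, 837 to 851 bases for Lamb3 and 2636 to 2683 bases for Dst, while their longest annotated transcripts have 4310, 4867 and 23279 bases. The FPKM level of these 3 genes thus goes with short implied transcripts, and a level set beside that of another gene depends on the measure. Their implied lengths differed little between the genotypes, and their log2 fold changes on coverage were -0.14 for Itga6, -0.01 for Lamb3 and 0.11 for Dst, close to those on FPKM.

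The pattern of Itga3 over the 4 libraries was compared with that of each of the other 13608 tested genes, as the Euclidean distance between centred log2(FPKM + 1) values. The nearest genes were Tmem132d at a distance of 0.059, Gch1, the first enzyme of tetrahydrobiopterin synthesis, at 0.071, and Wnk1, a kinase that regulates ion transport, at 0.076, beside a median distance of 1.21. Wnk1 had 73.2 and 72.3 FPKM in the controls against 153 and 143 FPKM in the knockouts. Tmem132d had 1.02 and 0.913 FPKM in the controls against 3.24 and 2.82 FPKM in the knockouts. Gch1 had 2.23 and 2.25 FPKM against 5.78 and 4.79 FPKM. At such low levels the pseudocount of 1 shrinks the change, so these 2 genes have larger FPKM ratios than Itga3. In all, 85 genes lay within a distance of 0.2, so with 4 libraries many genes share this pattern.

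The partners of the 9 genes were described with 6 lists, of which 83 of 90 genes were tested. Of these, 19 rose and 21 fell past the threshold in the knockouts, beside the 8.99% and 25.4% of all tested genes. Of 26 tested basement membrane genes, 2 were called higher and 12 lower, and the median of their log2 fold changes was -0.30. With the libraries at 1 median these counts were 5 and 8, and after quantile normalization 4 and 9. Without control replicate 1 they were 1 and 7, and without control replicate 2 they were 1 and 6. The largest rise was that of Tinagl1, a secreted matrix protein, which had 5.99 and 6.60 FPKM in the controls against 40.9 and 29.6 FPKM in the knockouts (log2 fold change 2.30, limma adjusted p = 0.000441). The largest fall was that of Col4a5, a chain of the collagen IV network, from 12.7 FPKM in both controls to 3.58 and 4.28 FPKM (log2 fold change -1.47, limma adjusted p = 0.000635). Among the other genes called lower were Fras1, Frem1 and Frem2, which encode a complex of the epidermal basement membrane and were picked out after their values were seen. Col7a1, the collagen of the anchoring fibrils below the hemidesmosome, had 42.2 and 43.2 FPKM in the controls against 40.4 and 41.7 FPKM in the knockouts (log2 fold change -0.06, 95% confidence interval -0.25 to 0.14, limma adjusted p = 0.599), and it was 0.15 with the libraries at 1 median.

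Of 19 other integrin subunits tested, 6 were called higher and none lower by limma, beside 8.99% and 25.4% of all tested genes. Their median log2 fold change was 0.03. At TPM, coverage, the pseudocount of 0.1, the replicate block and the fit without a trend, 1 was called lower, and without control replicate 1 or 2 only 1 was called higher. Itgb6, the epithelial subunit that pairs with αv, had the largest log2 fold change on the log2(FPKM + 1) scale, with 3.12 and 2.96 FPKM in the controls against 8.69 and 8.35 FPKM in the knockouts (log2 fold change 1.24, limma adjusted p = 0.000864). The others called higher were Itga2, Itga5, Itga7, Itgav and Itgb7, named after their values were seen, of which α2, α5, α7 and αv can pair with β1. Itga7 had 0.310 and 0.184 FPKM in the controls against 1.24 and 2.35 FPKM in the knockouts, a larger ratio than that of Itgb6 at a level where the pseudocount of 1 shrinks the change.

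Of 20 integrin-linked adhesion proteins tested, 4 were called higher and 5 lower, beside 8.99% and 25.4% of all tested genes. Tns4, a tensin that binds β integrin tails, had 13.4 and 15.8 FPKM in the controls against 53.5 and 83.0 FPKM in the knockouts (log2 fold change 2.12, limma adjusted p = 0.00123). Tns1, another tensin, had 6.47 and 7.62 FPKM in the controls against 3.84 and 4.38 FPKM in the knockouts (log2 fold change -0.65, limma adjusted p = 0.0121). The adjusted p of Tns1 was 0.0686 without control replicate 1 and 0.116 without control replicate 2. With the libraries at 1 median 7 genes of this list were called higher and 1 lower, and without control replicate 1 or control replicate 2 the counts were 2 higher and 0 lower.

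Of 10 tetraspanins and other matrix receptors, 3 were called higher and 3 lower, beside 8.99% and 25.4% of all tested genes. Cd151, the tetraspanin that accompanies α3β1 and α6β4, had 23.4 and 22.1 FPKM in the controls against 23.6 and 21.9 FPKM in the knockouts (log2 fold change -0.0025, 95% confidence interval -0.22 to 0.22, limma adjusted p = 0.985). Cd81 had 26.2 and 32.2 FPKM in the controls against 69.9 and 70.6 FPKM in the knockouts (log2 fold change 1.245, limma adjusted p = 0.00105). Cd82 had 18.1 and 18.5 FPKM in the controls against 4.09 and 4.66 FPKM in the knockouts (log2 fold change -1.85, limma adjusted p = 0.000235). Cd81 and Cd82 are named as the largest called rise and fall of the list. The fourth tetraspanin, Cd9, had 174 and 190 FPKM in the controls against 156 and 152 FPKM in the knockouts and was not called (limma adjusted p = 0.0734). Without control replicate 1 only 1 gene of the list was called higher.

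**Figure D5:**
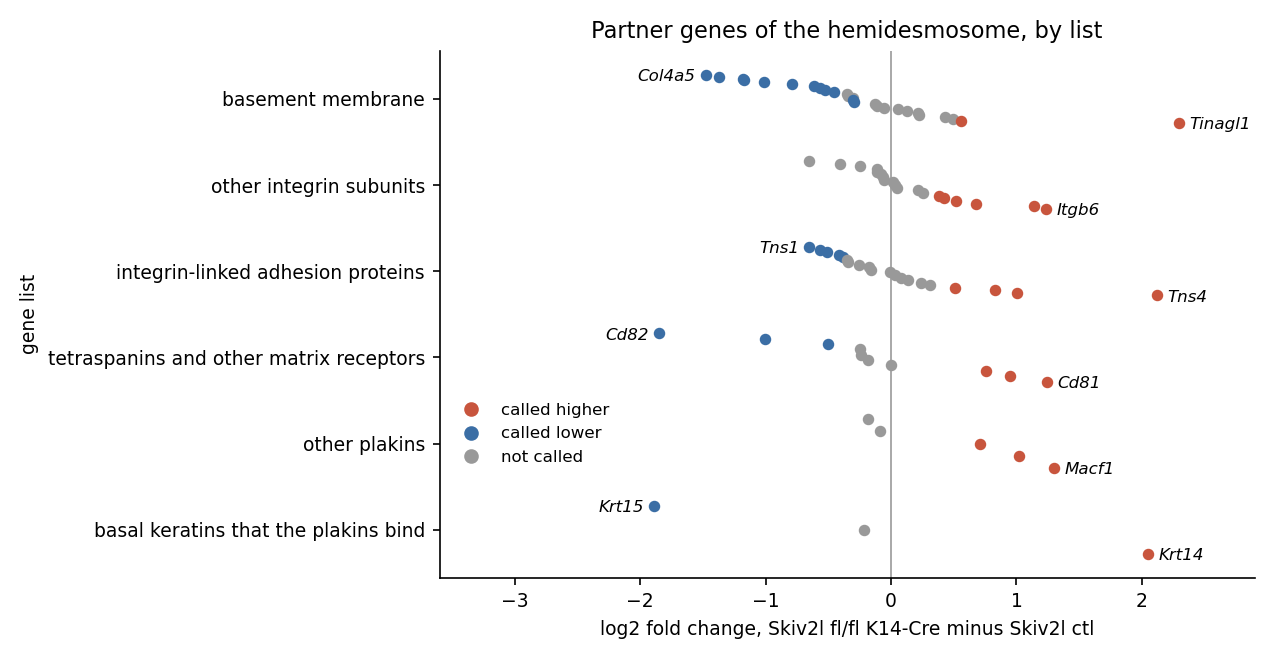
Log2 fold change of the 83 tested partner genes, 1 point a gene, in 6 lists, with genes called higher in red, called lower in blue and not called in gray (limma, adjusted p under 0.05). The basement membrane list has 12 blue points of 26, and the lists of other integrin subunits and other plakins have none.

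Dst and Plec were not called. Of the 5 other plakins, 3 were called higher and 0 lower, beside 8.99% and 25.4% of all tested genes. The 3 called higher were Macf1, Eppk1 and Dsp, and the latter 2 were named after their values were seen. Macf1, a linker of actin and microtubules, had 47.1 FPKM in both controls and 152 and 91.0 FPKM in the knockouts (log2 fold change 1.30, limma adjusted p = 0.00818), and the adjusted p was 0.0786 without control replicate 1 and also without control replicate 2. Dsp, the plakin of desmosomes, had 741 and 800 FPKM in the controls against 1213 and 1300 FPKM in the knockouts. Without control replicate 1, 1 of these plakins was called higher. Of the 3 basal keratins that hemidesmosomal plakins bind, Krt14 was called higher and Krt15 lower, and Krt5 was not called. The count lower was 2 on TPM and after quantile normalization. Krt5 had 2003 and 2075 FPKM in the controls against 1761 and 1759 FPKM in the knockouts (log2 fold change -0.21, limma adjusted p = 0.130). With the libraries at 1 median its log2 fold change was 0.001. After quantile normalization Krt5 had a log2 fold change of -1.16 (limma adjusted p = 0.000213) and Krt14 one of 1.17. Krt14 had 1736 and 1812 FPKM in the controls against 7381 and 7312 FPKM in the knockouts (log2 fold change 2.05, limma adjusted p = 0.000171). Krt15 had 462 and 428 FPKM in the controls against 92.1 and 155 FPKM in the knockouts (log2 fold change -1.89, limma adjusted p = 0.00258).

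Markers of the cell types the epidermal sheet could hold moved between the groups as well. The 4 basal keratinocyte markers summed to 4290 and 4414 FPKM in the controls against 9320 and 9319 FPKM in the knockouts. Of the 4, Krt14 was called higher, Krt15 lower, and Krt5 and Trp63 were not called. The higher sum came from Krt14 alone, with 1736 and 1812 FPKM in the controls against 7381 and 7312 FPKM in the knockouts. Krt5 and Krt15 were lower in both knockout libraries than in both controls. Trp63, which marks basal cells, had 88.9 and 99.9 FPKM in the controls against 85.7 and 92.7 FPKM in the knockouts, and the groups overlapped. The 5 suprabasal markers summed to 15461 and 18862 FPKM in knockout epidermis against 23180 and 24633 FPKM in the controls, with 2 called lower. The 6 hair follicle markers summed to 70.0 and 73.8 FPKM against 139 and 162 FPKM, with 5 of 6 called lower. The 6 fibroblast markers summed to 21.9 and 25.0 FPKM against 61.3 and 69.0 FPKM, most of it Dcn, with 2 of 5 tested called lower. The 5 leukocyte markers summed to 11.2 and 11.0 FPKM against 24.9 and 29.2 FPKM, with 3 of 4 tested called lower. The 4 proliferation markers summed to 52.1 and 53.7 FPKM against 79.6 and 74.5 FPKM, with 3 of 4 called lower. The study itself reported more proliferating basal keratinocytes in newborn knockouts, from protein staining of a proliferation marker and flow cytometry of the cell cycle. Those measures are of cells, while these sums are RNA of the whole epidermis, and the reason for the opposite direction was not tested. Among all tested genes 25.4% were called lower, and 55.3% had both knockout libraries below both controls. The 5 endothelial markers, of which Emcn was at 0 in every library, summed to under 1 FPKM, the 6 skeletal muscle markers to at most 3.03 FPKM, and the melanocyte and Schwann cell sums overlapped between the groups. The part of these shifts in the values of the 9 anchor genes was not tested.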

How the data were processed

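Epidermal RNA of 4 pups was analysed, 2 per genotype. The authors aligned and quantified the reads with an institutional workflow and deposited 1 table per library. The authors deposited FPKM, in which fragments are divided by transcript length and library size. The authors also deposited TPM, with an equal sum in every library. The authors also deposited a coverage signal per gene, whose calculation is not given in the sources used here. The aligner and whether counting used strand are not given in the sources used here. The submitters' processing notes name GRCm38, and identifiers and coordinates matched GENCODE M21 for 54029 of 54752 genes.

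FPKM of rows with the same gene identifier was summed. The 13609 protein-coding genes of 21921 with FPKM above 0.5 in at least 1 library were fitted as log2(FPKM + 1) in limma 3.58.1, run in R 4.3.3 (eBayes with a trend, two-sided, Benjamini-Hochberg adjustment over all tested genes), after the code was tested on simulated data. Summaries and figures used Python 3.11.15. Depth was read as the most frequent ratio of coverage to FPKM, and coverage was divided by it to give coverage per gigabase. Counting intervals are not given because no counts were used, and 2 pups per genotype limit the precision.

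The members and the gene lists were chosen with earlier results of these data known. The genes named are the 9 members, Skiv2l, Col7a1, Cd151, the largest called rise and fall in each partner list, markers of cell types whose sums did not overlap, and the 3 genes nearest in pattern to the member with the largest called change. Fras1, Frem1, Frem2, Itga2, Itga5, Itga7, Itgav, Itgb7, Eppk1, Dsp, Krt5 and Cd9 were named outside this rule, after their values were seen, and Parp10 and Gm26788 for their overlap with members. Another gene that the rule named is not reported here. The alternatives were a pseudocount of 0.1, FPKM above 1 in at least 2 libraries, no filter, TPM, scaling to 1 median, quantile normalization, scaling without genes above 1000 FPKM, a block for the replicate number, eBayes run without a trend, a fold change of at least 2, all annotated genes, and leaving out each library. Coverage per gigabase was added after seeing the data.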

Additional observations from a re-analysis of the deposited data

How the results depend on the processing

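The number of the 9 anchor genes called higher, 4 as reported, was 2 on coverage per gigabase (an alternative chosen after seeing the data), 2 for eBayes without a trend and 0 with a fold change of at least 2, and 1 to 3 when 1 library was left out. The number called lower was 0 under every alternative. Among all tested genes, 1223 higher and 3455 lower as reported, the counts were 1894 and 1623 with the libraries at 1 median and 421 and 480 with a fold change of at least 2, 1917 were lower after quantile normalization, and 497 to 1146 were higher and 805 to 3135 lower with 1 library left out. Of the partner genes, 19 higher and 21 lower as reported, 9 and 8 changed at least 2-fold, 12 were lower with the libraries at 1 median, and 7 to 19 were higher and 9 to 20 lower with 1 library left out. With 1 library left out the log2 fold change of Skiv2l was -1.08 to -0.77, and its value of -0.92 missed a fold change of at least 2. The log2 difference of the Lama3 to Lamb3 ratio was 0.35 on FPKM and 0.11 on coverage per gigabase. Signs turned, without a call, for Itga6 (0.042), Col17a1 (0.15), Lamb3 (0.19), Col7a1 (0.15) and Cd151 (0.20) with the libraries at 1 median, for Lamb3 (0.030) and Cd151 (0.047) scaled without genes above 1000 FPKM, for Col7a1 (0.018) and Cd151 (0.11) after quantile normalization and for Cd151 (0.030) on coverage per gigabase. With 1 library left out the ranges that crossed 0 were -0.14 to 0.0018 for Col17a1, -0.048 to 0.0071 for Lamb3, -0.067 to 0.17 for Plec and -0.054 to 0.049 for Cd151. Scaling to 1 median added nearly the same shift to each of the 9 genes. The cause of the other differences was not tested. With a replicate block 4 of the 9 genes were called higher and 0 lower, and 1264 and 3393 of all genes. The block pairs different animals, and the deviations of same-numbered libraries had a correlation of -0.077 over genes, so the numbers were not read as pairs. Where 1 library was left out, the lone library of its group was taken to vary like the other group. The members have 1 row per table, so taking the highest row in place of the sum gave the same ratios.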
